A study of Mus musculus with 6 samples.

Results

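Calcium buffers and neuronal calcium sensors are small proteins that bind calcium ions through a fold called the EF hand. Buffers such as calbindin, calretinin and parvalbumin take up calcium and shape the size and length of calcium signals, and they serve as classical markers of neuron types in cerebellum and brainstem. The neuronal calcium sensors, among them the visinin-like proteins, hippocalcin and its relatives, neurocalcin and frequenin, change shape when they bind calcium, and several then expose a fatty acid tail that carries them to membranes. The set held 9 genes of these families (Calb1, Calb2, Pvalb, Vsnl1, Hpca, Hpcal1, Hpcal4, Ncald and Ncs1). All 18 of their probe sets with a single gene symbol were used, of 45101 probe sets on the array and of 34958 with a single symbol. A probe set is the group of short probes that reads 1 transcript region. The genes were chosen by symbol, with the early-minus-late differences of these same arrays already known. Those differences are therefore given as a description, without a test, and the calls counted below support nothing on their own.

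The cells came from Swiss Webster mouse embryos that carried Atoh1-CreER and the EGFP reporter RCE, in both groups. Atoh1 is the proneural factor of the rhombic lip, and cells that express it while tamoxifen acts become EGFP-positive for good, together with their progeny. The pregnant dam received tamoxifen (4 mg per 35 g body weight) by gavage at E10.5 in the early group and at E13.5 in the late group. All embryos were collected at E14.5, the rhombomere 1 and isthmus region was dissected, and EGFP-positive cells were sorted. The early cells had thus been labelled for longer than the late cells at collection, and the time of labelling and the time since then cannot be told apart. Each group held 3 samples, 1 array each. Whether separate litters or pooled embryos gave the samples is not stated in the labels, so the p-values cover only sample-to-sample spread, part of which could be technical.

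The median signal of an array was 97.7 to 112 units, and precision is limited by having 3 arrays in each group. Early arrays had rank correlations of 0.874 to 0.893 with each other, late arrays of 0.938 to 0.945, and early with late arrays of 0.845 to 0.886 (all probe sets). The 3′ to 5′ ratio of the Actb control, a sign of RNA quality, was 17.4 to 26.2 in early and 12.9 to 16.1 in late arrays, so it moved with the group, while that of Gapdh overlapped (10.6 to 13.2 against 9.47 to 12.1). Their part in the results was not tested. Early replicate 3 had a low signal of Xist and late replicate 3 low signals of Y-linked genes, while the other 4 arrays carried both. Summed signals of the neuron markers were 91239 to 97056 in early and 46981 to 52879 in late arrays, and those of 5 cycling cell markers were 3860 to 5111 against 35410 to 37189. In the fit described below, 6 of the 9 neuron markers were called higher in early cells (against 16.23% of all genes). The other 3 did not pass: Snap25 stood at 4715 ± 143 in early and 3228 ± 545 units in late cells, Syt1 at 6075 ± 505 against 6239 ± 404 and Rbfox3 at 2193 ± 455 against 3540 ± 336 units. In such bulk samples, fewer cells of a type and less RNA per cell cannot be told apart. All 9 neuron markers and 9 of 10 markers of the Atoh1 and granule cell lineage lay above the array median on every array of both groups, the tenth, Barhl2, on none. Of the 9 tested lineage markers, 5 were called higher in late cells (against 13.96% of all genes) and 2 higher in early cells (against 16.23%). Atoh1 stood at 690 ± 273 in early and 8642 ± 1588 units in late cells, and Lhx9 at 7203 ± 1921 against 659 ± 140 units.

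The 9 genes fell into 3 kinds. Calb1, Calb2, Vsnl1 and Hpcal4 had high signals in early cells and signals near or below the array median in late cells. Hpca, Hpcal1, Ncald and Ncs1 had signals above the array median in both groups, and signals were 1.40- to 1.95-fold higher in early cells. Pvalb alone ran the other way, with a high signal in late cells. The plot of signals by array shows all 3 kinds.

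**Figure D1:**
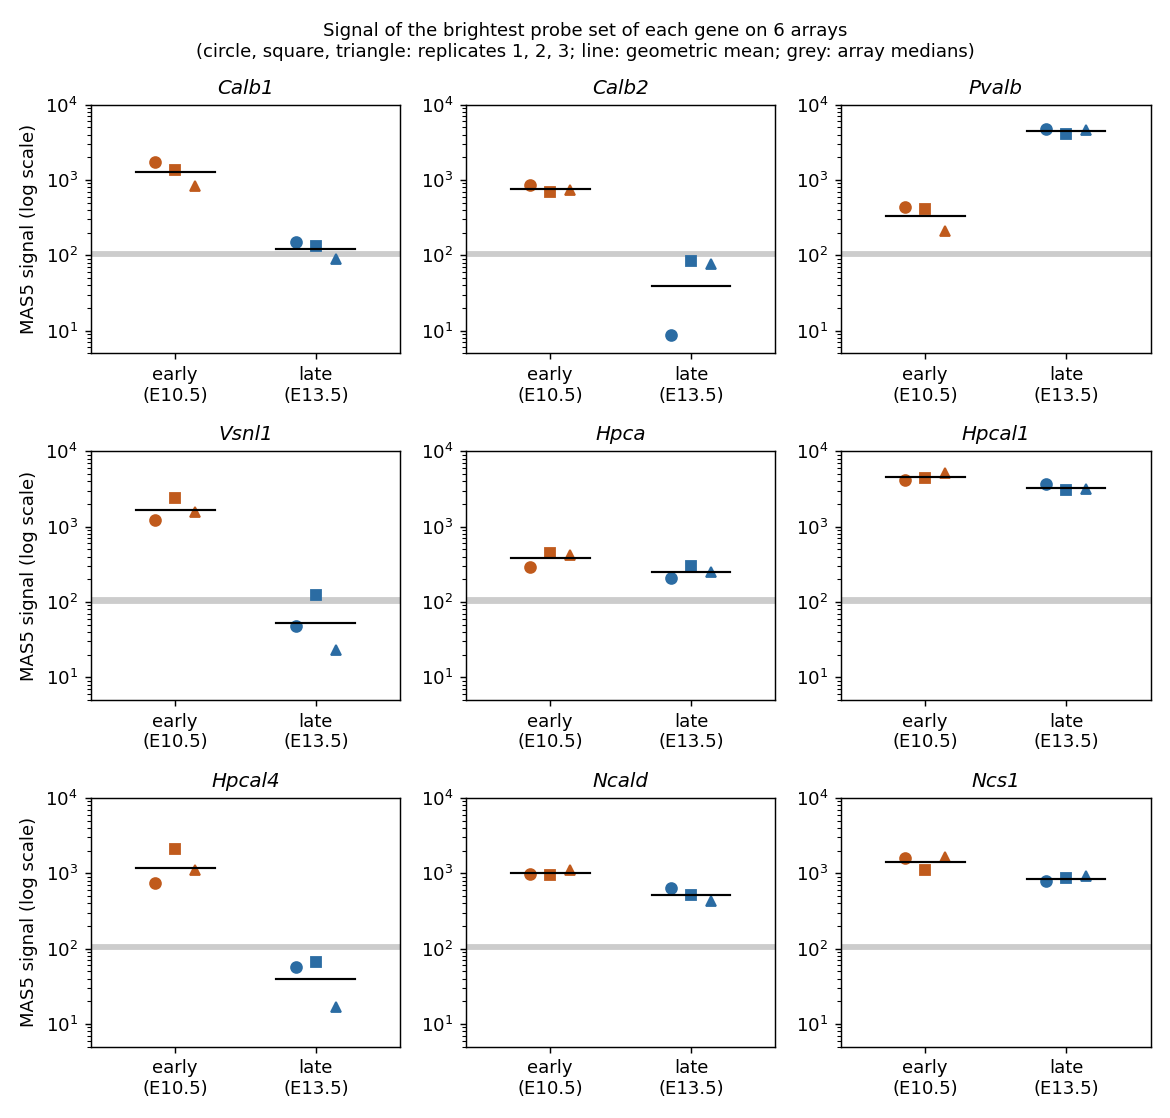
MAS5 signal (log scale) of the brightest probe set of each of the 9 genes in the 3 early and 3 late arrays. Points are arrays, lines are geometric means, and the grey band spans the 6 array medians (97.7 to 112). Late signals of Calb1, Calb2, Vsnl1 and Hpcal4 are at most 150 units, Pvalb is higher in all 3 late arrays, and the groups overlap for Hpca.

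Among the buffers, Calb1 encodes calbindin, which Purkinje cells express strongly. The signals of its brightest probe set (1417504_at) were 1756, 1368 and 836 units in early replicates 1, 2 and 3 and 150, 134 and 88.5 units in the late replicates. All early signals lay above all late ones, and early replicate 3 was the lowest of its group. The means were 1320 ± 462 against 124 ± 32.0 units (SD, n = 3 in each), a log2 difference of 3.38 ± 0.35 (SE from limma), or 10.4-fold. The other 3 Calb1 probe sets were too dim to be tested. Each lay above the array median on a single early array and on no late array. One of them, 1448738_at, read 2.16, 27.8 and 319 units in the early arrays, with the high value on early replicate 3, the array that was lowest for the bright probe set.

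Calb1 is also a Purkinje cell gene, so the Purkinje list was set beside it. Of 11 Purkinje markers, 8 had a single-symbol probe set, 3 of them (Gad1, Lhx1 and Lhx5) also on the GABAergic list, and their summed signal was 7341 to 10557 units in early and 1163 to 2655 units in late arrays. In early arrays most of that sum was Foxp2 (6128 ± 1630 against 590 ± 357 units) and Dab1 (1427 ± 39.9 against 231 ± 116 units), which passed the test toward early cells (limma adjusted p = 0.00474 and 0.00410). Gad1, the enzyme that makes GABA, passed as well, at 362 ± 157 against 128 ± 21.8 units (limma adjusted p = 0.0485). Rora, a nuclear receptor of Purkinje cells, stood at 467 ± 28 against 222 ± 87.0 units without overlap, and did not pass (0.0545). Car8 stood at 185 ± 147 against 134 ± 126 units, Pcp2 at 72.0 ± 26.6 against 77.0 ± 39.1, Lhx5 at 60.4 ± 47.8 against 36.2 ± 21.1 and Lhx1 at 242 ± 160 against 412 ± 71.2, each with overlapping groups. The GABAergic and glycinergic list of 7 measured genes summed to 962 to 1796 units in early and 707 to 1037 units in late arrays. Of its 4 tested genes Gad1 and Gad2 passed toward early cells, and Slc32a1 and Lhx1 did not pass. Gad2 lay above the median on 1 late array and needed its early arrays to be tested. Slc17a6, the vesicular glutamate transporter of brainstem neurons, stood at 5123 ± 398 against 1411 ± 147 units. The part of Purkinje or GABAergic cells in the Calb1 difference, or in that of any other of the 9 genes, was not tested.

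Calb2 encodes calretinin, found in many glutamatergic and GABAergic neurons, including granule cells of the mature cerebellum. Its only probe set (1451129_at) read 865, 694 and 731 units in early and 8.89, 84.8 and 77.8 units in late replicates 1, 2 and 3. The early arrays were close to each other, and all late arrays lay below their array median. The means were 763 ± 90.1 and 57.2 ± 42.0 units (SD, n = 3), a log2 difference of 4.29 ± 0.87 (SE). The size rested on late replicate 1: without it the log2 difference was 3.23. With every signal below its array's median raised to that median, a floor that keeps background noise from setting the fold, the early signal was 7.38-fold higher.

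Pvalb encodes parvalbumin, the buffer of fast-spiking interneurons and, in the mature cerebellum, of Purkinje cells and molecular layer interneurons. Its only probe set (1417653_at) read 433, 417 and 212 units in early replicates 1, 2 and 3 and 4712, 4044 and 4651 units in late replicates 1, 2 and 3. Every late array was above every early array, and all 6 lay above their median. Early replicate 3 was the lowest of its group, as it was for Calb1. The means were 354 ± 123 in early and 4469 ± 369 units in late cells (SD, n = 3), a log2 difference of -3.73 ± 0.32 (SE), or 13.2-fold toward the late group. The floor left this difference as it was. The late group is also the one with the higher signals of cycling cell markers, such as Mki67 (11769 ± 692 against 1067 ± 119 units). The part of cycling cells in the Pvalb difference was not tested. In the RefSeq gene table (GRCm38.p6) the genes beside Pvalb were Ift27, a small GTPase of cilia, and Ncf4, a phagocyte oxidase subunit. Ift27 stood at 1656 ± 360 in early and 3192 ± 594 units in late cells (limma adjusted p = 0.0337), a log2 difference of -0.95 ± 0.24, in a probe set type that can cross-hybridise. Ncf4 did not reach the array median on any array.

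Among the sensors, the visinin-like proteins Vsnl1 and Hpcal4 had the largest early-minus-late differences, with or without the floor. Vsnl1, visinin-like protein of brain neurons, read 1220, 2394 and 1581 units in early and 48.6, 125 and 23.1 units in late replicates 1, 2 and 3 (1420955_at). The groups did not overlap, and late replicate 2 alone was above its array median in the late group. The log2 difference was 5.0 ± 0.63 (SE). It was 5.63 without late replicate 2 and 4.41 without late replicate 3, and with the floor the early signal was 15.6-fold higher. With its probe sets averaged it was 3.07. A second Vsnl1 probe set (1450055_at) read 54.5 to 102 units in early and 17.9 to 44.3 units in late arrays, below the median on all 6, and was not tested.

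Hpcal4, a hippocalcin-like member of the visinin-like branch, read 734, 2069 and 1109 units in early and 56.1, 66.9 and 16.8 units in late replicates 1, 2 and 3 (1433987_at). Its early arrays spread widely, and no late array reached its median. The log2 difference was 4.90 ± 0.63 (SE), 4.28 without late replicate 3, and the early signal was 11.6-fold higher with the floor. For both genes early replicate 2 was the brightest and early replicate 1 the dimmest of the early arrays. Late replicate 2 was the brightest and late replicate 3 the dimmest of the late arrays, but these signals lay mostly below the median.

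Hpca and Hpcal1 encode hippocalcin and its near relative. Hpca read 293, 443 and 425 units in early and 206, 297 and 251 units in late replicates 1, 2 and 3 (1450930_at). Late replicate 2 was above early replicate 1, so the groups overlapped. The log2 difference was 0.61 ± 0.25 (SE). Hpcal1 read 4216, 4381 and 5197 units in early and 3673, 3021 and 3162 units in late replicates 1, 2 and 3 (1448812_at). These groups did not overlap, but the difference was 0.48 ± 0.19 on the log2 scale, or 1.40-fold. Neither gene passed the threshold of the fit. A second Hpca probe set stayed between 1.29 and 31.6 units on the 6 arrays.

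Ncald encodes neurocalcin delta, a sensor known to bind clathrin. Of its 3 probe sets, 1417568_at read 985, 948 and 1111 units in early and 628, 517 and 434 units in late replicates 1, 2 and 3. The probe set 1417569_at read 502, 442 and 612 units in early and 176, 227 and 219 units in late replicates. In both, all early arrays were above all late ones, by 0.96 ± 0.21 and 1.32 ± 0.21 on the log2 scale (SE). The third (1444466_at) differed from them: it read 166, 171 and 47.1 units in early against 208, 85.4 and 170 units in late replicates, with a log2 difference of -0.39 ± 0.60 and overlapping groups. Its difference turned to 0.22 without early replicate 3. For 1417568_at the call was lost without late replicate 2 (log2 difference 0.96) or late replicate 3 (0.83), whereas 1417569_at passed without any single array.

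Ncs1 encodes frequenin, the most widely expressed neuronal calcium sensor. Its bright probe set (1434887_at) read 1607, 1104 and 1632 units in early and 783, 858 and 907 units in late replicates 1, 2 and 3. The groups did not overlap, and early replicate 2 was the lowest of its group. The log2 difference of 0.75 ± 0.22 (SE) did not pass with all 6 arrays and passed without early replicate 2, where it was 0.93. The other 2 Ncs1 probe sets read at most 108 units, and their groups overlapped.

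**Figure D2:**
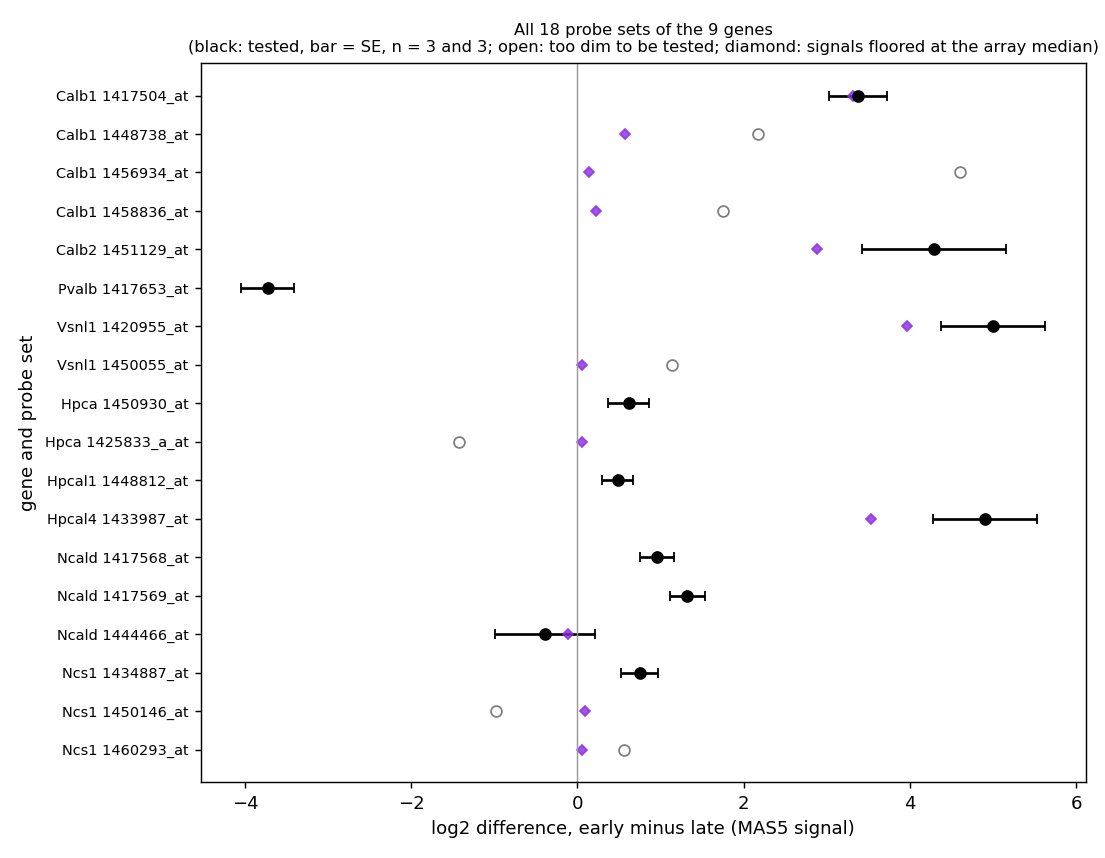
Log2 difference (early minus late) of all 18 probe sets of the 9 genes. Black points were tested (bars are SE, 3 arrays per group), open points were too dim to be tested, and diamonds give the difference with signals floored at the array median. With the floor the untested probe sets give 0.06 to 0.57, while Calb1, Calb2, Vsnl1 and Hpcal4 keep 2.88 to 3.96 and Pvalb stays at -3.73.

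In the fit across all 23471 probe sets tested, 11 of the 18 probe sets were bright enough to be tested, at least 1 for each gene. Calb2 and Hpcal4 were tested through their early arrays alone. Calb1, with 2 late arrays above the median, and Vsnl1, with 1, also needed their early arrays to be tested. Of these 11, 6 were called higher in early cells, where 13.45% of all tested probe sets were so called, and 1 was called higher in late cells, against 12.55%. The signals of the groups did not overlap in 9 of the 11, as in 46.88% of all tested probe sets. Counted by the brightest probe set of a gene, Calb1, Calb2, Vsnl1, Hpcal4 and Ncald were called higher in early cells (5 of 9, against 16.23% of 11064 genes). Pvalb was called higher in late cells (1 of 9, against 13.96%), and Hpca, Hpcal1 and Ncs1 did not pass. The median log2 difference was 0.96 over the 9 genes and -0.03 over all tested genes, and the median size was 3.38 against 0.57. Since the genes were chosen with this contrast known, nothing is read from these shares. Without early replicate 3 and late replicate 3 together, 3 probe sets were called higher in early cells.

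**Figure D3:**
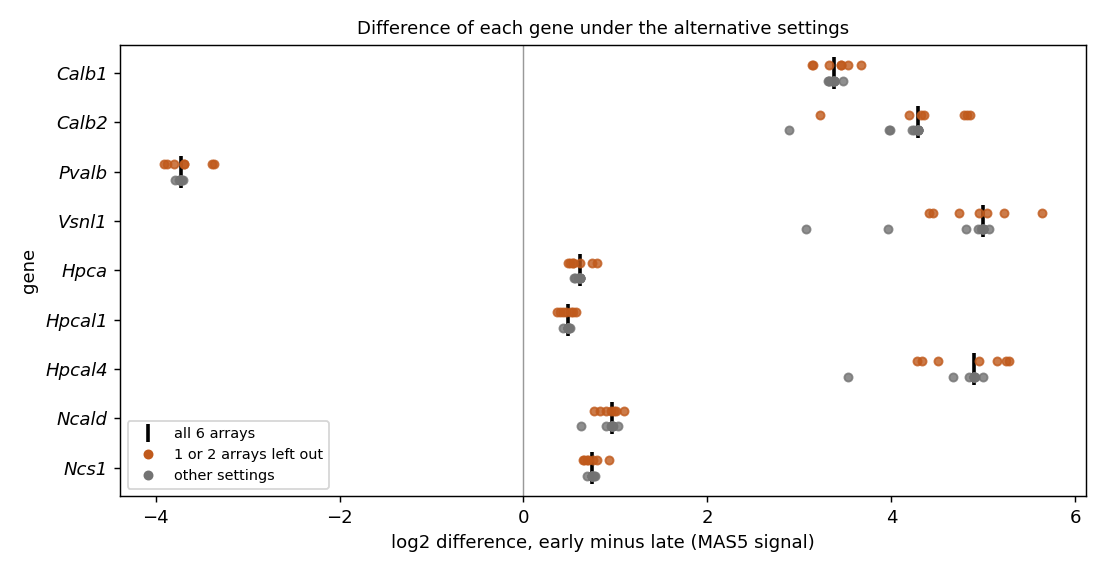
Log2 difference (early minus late) of the brightest probe set of each gene with all 6 arrays (black bar), with 1 or 2 arrays left out (orange) and under the other settings (grey). No gene changed its direction; Vsnl1 ranged from 3.07 to 5.63 and Pvalb from -3.91 to -3.36.

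RefSeq promoter entries (GRCm38.p6) were found for 6 of the 9 genes. The 250 bases before the start are shown for the pair of genes with the largest early differences and for Pvalb, the gene that ran the other way. Capitals mark matches to the E-box CANNTG, the 6-base element that factors of the Atoh1 class bind. This motif reads the same on both strands in this form, and 66.2% of all 32851 promoter entries hold it in a window of that length.
Vsnl1 (chr12:11436579-11436828, minus strand): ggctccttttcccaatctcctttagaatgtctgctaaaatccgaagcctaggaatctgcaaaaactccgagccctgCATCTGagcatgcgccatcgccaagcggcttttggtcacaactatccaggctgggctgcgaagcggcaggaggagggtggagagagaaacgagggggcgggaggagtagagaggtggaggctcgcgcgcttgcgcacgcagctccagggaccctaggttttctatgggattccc
Hpcal4 (chr4:123183254-123183503, plus strand): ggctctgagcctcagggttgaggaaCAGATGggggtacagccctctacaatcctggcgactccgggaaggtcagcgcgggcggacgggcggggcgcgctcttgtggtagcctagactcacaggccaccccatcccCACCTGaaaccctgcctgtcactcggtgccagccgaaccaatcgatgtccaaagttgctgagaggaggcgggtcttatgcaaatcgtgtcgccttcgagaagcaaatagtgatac
Pvalb (chr15:78206401-78206650, minus strand): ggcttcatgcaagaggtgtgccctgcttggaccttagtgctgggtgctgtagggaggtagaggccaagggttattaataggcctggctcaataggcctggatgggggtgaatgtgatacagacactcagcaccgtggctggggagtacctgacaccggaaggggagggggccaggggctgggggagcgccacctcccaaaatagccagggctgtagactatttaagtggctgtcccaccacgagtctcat

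The Vsnl1 window held 1 match, the Hpcal4 window 2 and the Pvalb window 0. A second entry of each of Vsnl1 and Pvalb held 0 and 1. The narrower E-box CAGCTG, found in 13% of all entries, was present in 1 of the 10 entries of the set, an entry of Hpca. These matches describe letters in a window and say nothing of binding.

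The genes most like Vsnl1 in their signals over the 6 arrays were Foxp2, a forkhead factor (Pearson r = 0.9997 of log2 signals), Sh3gl3, an endophilin, Asic2, an acid-sensing ion channel, and Rbms3, an RNA-binding protein (r = 0.998 for the last). Those most like Pvalb were Cnih4, a cornichon family member (r = 0.999), the kinase Akt2, Prps1l3 and Cdk4, the kinase of early G1 (r = 0.998). Over 6 arrays in 2 groups such values mostly reflect the difference between groups, and those for Vsnl1 include late signals near background. Cdk4 stood at 4262 ± 898 units in early and 12644 ± 223 units in late cells.

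Related calcium genes were taken from 6 lists of 104 genes in all, of which 92 had a probe set with 1 symbol and 54 were tested. Of the 54, 19 (against 16.23% of all genes) were higher in early cells, 4 (against 13.96%) were higher in late cells and 31 did not pass. Their median log2 difference was 0.42. The early count fell to 11 without late replicate 1, to 9 without late replicate 3 and to 6 without early replicate 3 and late replicate 3 together. The genes of calmodulin itself were not analysed here.

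The list of genes related to the sensors held the KChIP subunits of potassium channels, recoverin, the GCAP and CaBP proteins, calneuron and the NECAB proteins. Of 16 such genes 7 were tested. Of these, 5 were higher in early cells, where 16.23% of all genes were, and 2 did not pass, with a median log2 difference of 2.57. Necab2, an EF-hand protein of neurons, stood at 1410 ± 301 in early and 236 ± 40.3 units in late cells (SD, n = 3; limma adjusted p = 0.00180). Kcnip4, Kcnip2 and Cabp7 were also higher in early cells (limma adjusted p = 0.00112, 0.00129 and 0.00535). Kcnip4 stood at 394 ± 72.8 against 38.6 ± 3.73 units. In these 3 genes no late array reached its median, so they were tested only through the group in which they were high, and with the floor the folds were 3.78, 1.40 and 1.85. Kcnip2 no longer passed with the floor (limma adjusted p = 0.143).

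Other EF-hand proteins were mostly too dim: of 21 measured, 7 were tested, 2 were higher in early cells, where 16.23% of all genes were, and 5 did not pass. Scgn, the buffer secretagogin, stood at 282 ± 78.4 against 85.9 ± 43.9 units (limma adjusted p = 0.0287). It did not pass without early replicate 1 (adjusted p = 0.0698), early replicate 2 (0.0560), late replicate 2 (0.0619) or late replicate 3 (0.0875). S100a10, a member of the S100 family that partners annexin, had 507 ± 18.6 units in early and 169 ± 76.5 in late cells (limma adjusted p = 0.0165), but did not pass without late replicate 3 (0.0656). Only 1 late array lay above its median for Scgn and 2 for S100a10, so both needed their early arrays to be tested. Of 4 tested genes of the calmodulin list, Camta1, a transcription activator that binds calmodulin, passed, at 1741 ± 58.2 in early and 722 ± 93.7 units in late cells (limma adjusted p = 0.00508). With its probe sets averaged, the log2 difference of Camta1 was 0.35 and did not pass (0.152).

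Of 14 tested genes of the list of calcium pumps, exchangers and mitochondrial uptake, 5 were higher in early cells, against 16.23% of all genes. The other 9 did not pass, and the median was 0.55. Slc8a1, the sodium-calcium exchanger of the cell membrane, stood at 3599 ± 911 in early and 329 ± 134 units in late cells, 11.5-fold apart (limma adjusted p = 0.00276). Atp2b3, a plasma membrane calcium pump of neurons, stood at 1882 ± 119 against 349 ± 120 units (limma adjusted p = 0.00286). Slc8a3, another exchanger, read 481, 404 and 1491 units in early replicates 1, 2 and 3 and 55.2, 250 and 52.5 units in late replicates. It passed with all arrays (limma adjusted p = 0.0393) but not without early replicate 1 (0.0648), early replicate 3 (0.0821), late replicate 1 (0.127) or late replicate 3 (0.128). Its log2 difference was 2.88, and 3.62 without late replicate 2. Only 1 late array lay above its median for Slc8a3, which thus needed its early arrays to be tested. With the probe sets of a gene averaged, the log2 difference fell from 3.52 to 2.04 for Slc8a1, from 2.49 to 1.63 for Atp2b3 and from 2.88 to 1.47 for Slc8a3, and all 3 still passed. Slc24a3, a potassium-dependent exchanger, stood at 912 ± 237 against 414 ± 52.1 units (limma adjusted p = 0.0218). It did not pass without late replicate 1 (0.0828), 2 (0.0694) or 3 (0.0665).

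Of 16 tested genes of the endoplasmic reticulum list, 1 was higher in early cells (against 16.23% of all genes), 4 were higher in late cells (against 13.96%) and 11 did not pass, with a median of -0.37. Whether this list differed from the others was not tested. Ryr3, a calcium release channel, stood at 1791 ± 150 in early and 445 ± 142 units in late cells (limma adjusted p = 0.00378). Rcn1 and Rcn3, EF-hand proteins inside the reticulum, were higher in late cells, Rcn1 at 3072 ± 375 against 937 ± 79.2 units and Rcn3 at 341 ± 35.8 against 62.1 ± 25.5 units (limma adjusted p = 0.00250 and 0.00425). With its probe sets averaged, Rcn1 had a log2 difference of -0.87 and did not pass (0.123). Orai2, a subunit of store-operated channels, stood at 178 ± 49.8 in late and 50.3 ± 21.5 units in early cells (limma adjusted p = 0.0197). It did not pass without late replicate 1 (0.0633) or late replicate 3 (0.0748), nor with the floor (0.0583). No early array reached its median for Rcn3 or Orai2, which were thus tested only through the late group, and with the floor their folds fell from 5.82 to 3.17 and from 3.71 to 1.62.

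Of 6 tested genes whose proteins are known to bind the sensors, 5 were higher in early cells, against 16.23% of all genes, and 1 did not pass, with a median of 1.05. Pi4kb, Il1rapl1, Chrna4 and Cltc each lost the call when single arrays were left out. Pi4kb, the lipid kinase bound by frequenin, stood at 386 ± 73.9 against 155 ± 49.6 units (limma adjusted p = 0.0201). It did not pass without late replicate 2 (0.0722) or late replicate 3 (0.0697), nor with its probe sets averaged (0.444). Il1rapl1, a synaptic receptor that also binds frequenin, stood at 264 ± 128 against 44.2 ± 27.5 units (limma adjusted p = 0.0291). It did not pass without early replicate 1 (0.0709), early replicate 2 (0.0509) or late replicate 1 (0.0635), and its log2 difference of 2.78 was 2.05 without late replicate 3. Chrna4, a nicotinic receptor subunit that visinin-like protein binds, stood at 183 ± 62.2 against 68.3 ± 4.89 units (limma adjusted p = 0.0181). It did not pass without late replicate 1 (0.0702), 2 (0.0637) or 3 (0.0623), nor with the floor (0.0655) or the replicate number as a block (0.0521). No late array reached its median for Il1rapl1 or Chrna4, which were thus tested only through the early group, and with the floor their folds fell from 6.85 to 2.39 and from 2.59 to 1.71. Cltc, the clathrin heavy chain, stood at 8032 ± 1622 against 4735 ± 477 units (limma adjusted p = 0.0475). This call was lost with each of 5 arrays left out, namely early replicate 1 (0.0827), early replicate 3 (0.0699), late replicate 1 (0.113), 2 (0.154) and 3 (0.128).

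Markers of other cell types that the sorted samples could hold were measured in the same arrays. Radial glia and astrocyte markers summed to 9496 to 10788 units in early and 4956 to 7243 units in late arrays. Of 4 tested, 2 were called higher in early cells (against 16.23% of all genes) and 1 higher in late cells (against 13.96%). Fabp7, the brightest of the list, stood at 8432 ± 526 against 4638 ± 1110 units and was higher in early cells (limma adjusted p = 0.0354), whereas Slc1a3 was higher in late cells, at 633 ± 111 against 337 ± 76.0 units (0.0363). Aldh1l1 was higher in early cells, at 180 ± 62.6 against 60.5 ± 21.0 units (limma adjusted p = 0.0304). No late array reached its median for Aldh1l1, which was thus tested only through the early group. The oligodendrocyte list summed to 3423 to 3802 against 1431 to 1924 units. Olig1 and Olig2, factors of oligodendrocyte precursors and of some progenitors, were higher in early cells, at 2149 ± 292 against 164 ± 58.2 and 410 ± 94.7 against 135 ± 20.2 units (limma adjusted p = 0.00149 and 0.00624). Pdgfra, a receptor of oligodendrocyte precursors, was higher in late cells, at 551 ± 123 against 175 ± 73.4 units (limma adjusted p = 0.0153), and Mbp stood at 815 ± 42.0 in early and 778 ± 138 units in late cells.

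The microglial list summed to 368 to 1055 units in early and 177 to 307 units in late arrays. Csf1r, its brightest gene, was above the median on all 6 arrays and higher in early cells, at 510 ± 244 against 136 ± 27.8 units (limma adjusted p = 0.0266), while the other 4 genes were above it on at most 1 array each. The endothelial list summed to 640 to 2475 against 247 to 1650 units, with Cldn5 at 714 ± 656 against 352 ± 407 units. The mesenchymal list summed to 394 to 1752 against 293 to 549 units, and the red blood cell list to 91.0 to 4724 against 256 to 410 units. The upper end of 4724 came from Hbb-y on early replicate 3, which read 4657 units. In early replicates 1 and 2 Hbb-y lay below its array median and below every late array (233, 326 and 258 units). Hbb-y did not pass (limma adjusted p = 0.575). The cholinergic list of 4 measured genes summed to 202 to 278 against 66.4 to 149 units. The part of these cells in the differences above was not tested.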

How the data were processed

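The authors deposited a linear intensity for each probe set of each array. It is a MAS5 signal, per the submitters' processing notes; the software version is not given in the sources used here. Each array had been scaled to a mean of 500 without the lowest and highest 2% of signals, judged from the values. Total RNA per cell therefore cannot be read from them, and low signals vary strongly on a log scale. Gene names came from the platform's annotation table; 932 probe sets with several symbols and 9211 with none were not named, and 64 control probe sets were left out.

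Log2 signals were fitted across all probe sets above their array's median on at least 3 of 6 arrays with limma 3.58.1 (lmFit, eBayes) in R 4.3.3, as a two-sided test of early minus late. P-values were Benjamini-Hochberg adjusted over 23471 probe sets, with a threshold of 0.05, and the code was tested on simulated data. A gene was represented by its brightest single-symbol probe set. SD is over 3 arrays and SE is limma's. Fits without an array kept the same probe sets.

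The members, lists, tests and alternatives were chosen with earlier results of these data known. From each list of related genes up to 4 with the largest difference past the threshold were named. Of marker lists, up to 2 of the brightest genes were named where they bear on a member. The other measured Purkinje genes, Gad2, Slc32a1, Slc1a3, Olig2, Pdgfra, Xist and the genes beside Pvalb were chosen after their values were seen. So were Aldh1l1, Atoh1, Barhl2, Lhx9, Rbfox3, Snap25, Syt1 and Hbb-y. Patterns like a member's were ranked by Pearson correlation over the 6 arrays, 4 genes each for the largest and the smallest difference.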

Additional observations from a re-analysis of the deposited data

How the results depend on the processing

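With 6 and 1 probe sets of the 9 genes called higher in early and late cells, leaving out 1 array gave 5 to 7 and 1, and leaving out early replicate 3 and late replicate 3 together gave 3 and 1. Of the related genes, 19 and 4 were called; leaving out 1 array gave 9 to 16 and 3 to 6. The early count was 8 without the filter, 8 with the probe sets of each gene averaged and 6 without early replicate 3 and late replicate 3, when the late count was 2. The late count was 8 with an intensity trend and robust settings. With the replicate number as a block, a paired fit, 5 and 1 probe sets and 14 and 5 related genes were called. Deviations of same-numbered arrays correlated by -0.075 to -0.0056 and those of differently numbered arrays by -0.041 to 0.062. No strong shared deviation was seen, which cannot exclude that same-numbered samples shared a litter or a day.

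Calb1, Pvalb, Vsnl1 and Hpcal4 kept direction and call in every setting run. Calb2 was not called without the filter or without early replicate 3 and late replicate 3, Ncald in 6 of 18 settings, and Ncs1 was called in 7 of 17 and Hpcal1 in 1 of 18. The cause was not tested. The mean over probe sets left Calb1, Hpca and Ncs1 under the filter, and the stricter filter left out Hpca, so these gave no value there. Dim late signals limit the folds of Calb2, Vsnl1 and Hpcal4.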
